A study of Homo sapiens with 8 samples.

Results

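The epidermal growth factor receptor (EGFR) family was examined through its 10 core genes, namely 4 receptors (EGFR, ERBB2, ERBB3 and ERBB4) and 6 ligands (EGF, TGFA, AREG, EREG, HBEGF and BTC). Members were taken by name: every probe whose gene name in the scanner files was 1 of these 10, which gave 18 of 34127 probes and 10 of 23084 named genes. The mRNA of 2 pancreatic cancer cell lines was hybridized on 8 one-color oligonucleotide arrays, 2 in each of 4 groups. Cells of MIA PaCa-2 and of Capan-1, the latter derived from a liver metastasis of a pancreatic ductal adenocarcinoma, were measured as parental cells without transfection and 48 hours after transfection with 10 nM of siRNA against HOXB7, a homeobox transcription factor. No array of cells given a scrambled siRNA was analysed here, so the siRNA groups differ from the parental groups by the transfection as well as by the siRNA sequence. The study describes 2 siRNA duplexes against different parts of HOXB7, and the labels do not say which of them each siRNA array received, so the spread of an siRNA group may include a difference between duplexes. MIA PaCa-2 was grown in RPMI with 10% serum and Capan-1 in IMDM with 20% serum, and all 4 arrays of a line shared 1 slide, so line, medium and slide cannot be told apart. Within each slide the siRNA arrays and the parental arrays held fixed positions, so treatment and position cannot be told apart either. Nothing in the labels ties the 2 arrays of a group to separate cultures, and their spread may be technical.

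EGFR, ERBB2, ERBB3 and ERBB4 are receptor tyrosine kinases that pair with each other. Binding of a ligand to EGFR, ERBB3 or ERBB4 brings 2 receptors together and switches on RAS-ERK and PI3K-AKT signaling, whereas ERBB2 has no known ligand and ERBB3 has little kinase activity of its own. The ligands are made as membrane-anchored precursors that ADAM proteases cut loose. EGF, TGFA and AREG bind EGFR, while EREG, HBEGF and BTC bind EGFR and ERBB4. In pancreatic ductal carcinoma this family is best known for EGFR, the target of erlotinib.

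Several genes were read by probes to different parts or variants of their transcript, and these probes did not give the same answer. Positions are those of the scanner files (hg18), which do not say whether a probe lies in coding sequence or in a UTR. The first 30 bases of the 60-base probes of EGFR, ERBB3 and TGFA are shown, since the results on these genes depend on which probe is read. Probes of a gene are numbered from the brightest to the dimmest over the 8 arrays.
EGFR probe 1 (transcript variant 1, chr7:55242335-55242394): tatcaaggaagaaatggttcagaaaatatt
EGFR probe 2 (transcript variant 3, chr7:55192052-55192111): ggaaatcagtgttttagagagagaactttt
EGFR probe 3 (transcript variant 2, chr7:55198940-55198999): agaactctgagtgcatacagtgccacccag
ERBB3 probe 1 (variant 1, chr12:54782427-54782486): gctcttgactacttggaactaggctcttat
ERBB3 probe 2 (the short variant s, chr12:54765484-54765543): ttttctaatttcaaagtacagtgtaccgga
ERBB3 probe 3 (variant 1, chr12:54768647-54768706): atggaagtagataaaaatgggctcaagatg
TGFA probe 1 (chr2:70536980-70537039): ccttggtggtggtctccatcgtggccctgg
TGFA probe 2 (chr2:70528827-70528886): ttttttaagcatcctgacaggaaatgtttt

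Levels are given as relative log2 intensity, the log2 of the processed spot intensity minus the 75th percentile of the gene probes of the same array. A value of 0 is therefore the level of that percentile, and a difference of 1 is a 2-fold difference. Since probes differ in how well they bind, a level was compared across groups for the same probe, never between probes. A probe counts as detected where the scanner software called it well above background. Of the 18 probes, 14 were detected on all 8 arrays, 3 on some and 1 on none. The precision rests on 2 arrays a group: an exact permutation test of 2 against 2 cannot go below p = 0.333, and the tests below are moderated tests over all probes (limma), with Benjamini-Hochberg adjustment over every probe tested.

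The array medians of spot intensity lay between 39.5 and 54.0, and 69.2% to 74.3% of spots were detected on each array. The HOXB7 probe, the check of the siRNA, read -4.82 and -4.10 on the parental MIA PaCa-2 arrays. On the siRNA arrays it read -7.77 and -7.78 and was not well above background, so HOXB7 fell at least 2.82-fold. The fitted log2 fold change was -3.32 (limma, adjusted p = 0.0174). In Capan-1 the same probe read -2.48 and -2.34 on the parental and -5.26 and -4.80 on the siRNA arrays, a log2 fold change of -2.62 (SE 0.26, adjusted p = 0.126), with all 4 arrays above background and no overlap. The keratins KRT7, KRT8, KRT18 and KRT19 were detected on all arrays of both lines. The epithelial adhesion genes EPCAM and CDH1 were detected on all 4 Capan-1 arrays and on 0 of 4 MIA PaCa-2 arrays. Summed over 6 epithelial markers on the linear scale (the 75th percentile of an array being 1), levels were 329 to 365 in MIA PaCa-2 and 1156 to 1275 in Capan-1. For 6 fibroblast markers they were 14.0 to 15.6 and 0.120 to 0.152, for 5 leukocyte markers 3.17 to 4.13 and 0.729 to 0.866, and for 4 endothelial markers 0.405 to 0.423 and 0.293 to 0.353. The 4 acinar markers summed to 0.0251 to 0.0392 in MIA PaCa-2, with 0 of 4 detected throughout. In Capan-1, where 1 of 4 was, they summed to 7.11 to 7.44 on the parental and 11.0 to 12.0 on the siRNA arrays. The part of these markers in the results was not tested. As RNA was taken from whole cultures, fewer cells of a kind and less RNA per cell cannot be told apart.

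Between the parental lines, 3 receptors and 4 ligands differed. ERBB2, ERBB3, EGF, EREG and HBEGF were lower in MIA PaCa-2 than in Capan-1, EGFR was higher by 1 of its 3 probes, and TGFA had 1 probe in each direction. ERBB4, AREG and BTC did not pass the threshold. These 7 of 10 members stand beside a background in which 74.8% of the genes tested differed between the parental lines (40.4% higher and 32.9% lower in MIA PaCa-2), so the share of members that differed is near that of all genes. Of the 17 member probes tested, 14 had groups that did not overlap, against 86.5% of all probes.

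**Figure D1:**
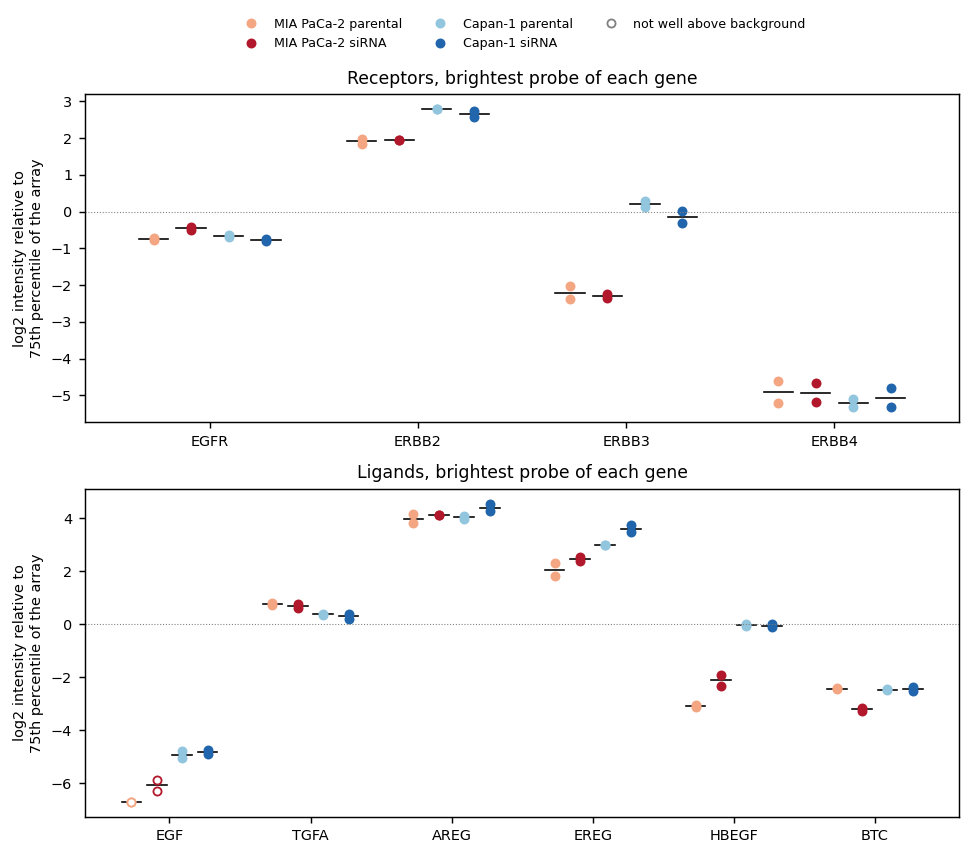
Relative log2 intensity (vertical axis, 0 is the 75th percentile of the array) of the brightest probe of each receptor (top) and ligand (bottom) on each of the 8 arrays, 2 points a group, with a black line at the mean of the group and open points where the probe was not well above background. HBEGF, ERBB3, ERBB2 and EREG sit lower on every MIA PaCa-2 array than on every Capan-1 array, and the siRNA arrays of MIA PaCa-2 lie above the parental ones for HBEGF and below them for BTC.

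EGFR, the receptor for which the family is named, was at nearly the same level in both parental lines. Probe 1, which lies on 10 spots of each array, read -0.71 and -0.76 in parental MIA PaCa-2 and -0.69 and -0.63 in parental Capan-1. The difference was -0.07 (SE 0.079, adjusted p = 0.43), with a 95% confidence interval from -0.27 to 0.12. Probes 2 and 3 belong to variants 3 and 2, which encode shorter receptors without the kinase domain. Probe 2 read -3.06 and -3.09 on the MIA PaCa-2 arrays and -3.46 and -3.38 on those of Capan-1, a difference of 0.34 (SE 0.10, adjusted p = 0.0231). Probe 3 read -3.51 and -3.38 against -3.95 and -4.09, a difference of 0.57 (SE 0.21, adjusted p = 0.0508). EGFR is thus counted as higher by the probe of variant 3 alone, and under 8 of 20 alternatives of the processing that probe did not pass, while probe 3 did pass under 7 of 20, at adjusted p between 0.0108 and 0.0493.

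ERBB2, the family member that needs no ligand to pair, was lower in MIA PaCa-2. Its probe 1 (chr17:35138355-35138414, 10 spots) read 1.85 and 1.97 in parental MIA PaCa-2 and 2.78 on both parental Capan-1 arrays. The lines did not overlap, and the level was 1.83-fold lower in MIA PaCa-2 (log2 difference -0.87, SE 0.094, adjusted p = 0.000326). A second probe, whose target is a separate mRNA record of ERBB2 at chr17:35098847-35098906, read -4.38 and -4.73 against -1.77 and -1.91. It gave a larger difference of -2.71 (SE 0.14, adjusted p = 1.49e-05), in the same direction. Under the normexp background correction, which adds an offset of 50 to the intensities, probe 2 differed by -1.11.

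ERBB3, the main partner of ERBB2, was lower in MIA PaCa-2 as well. Probe 1 read -2.02 and -2.39 in parental MIA PaCa-2 and 0.11 and 0.29 in parental Capan-1, which is 5.31-fold lower in MIA PaCa-2 (log2 difference -2.41, SE 0.17, adjusted p = 4.77e-05). Probe 2, for the short variant that encodes a secreted form, read -3.29 and -3.26 against -0.82 and -0.89, a difference of -2.42 (SE 0.081, adjusted p = 2.65e-06). Both probes thus separated the lines by nearly the same amount, and by -1.73 and -1.42 under normexp. Probe 3 read -5.38 and -4.79 in MIA PaCa-2 and -4.56 and -4.74 in Capan-1, with a difference of -0.44 (adjusted p = 0.207) that did not pass.

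ERBB4, a receptor of neuregulins as well as of EREG, HBEGF and BTC, was dim in both lines. Its brighter probe (chr2:211948760-211948819) read -4.61 and -5.21 in parental MIA PaCa-2 and -5.09 and -5.33 in parental Capan-1. These values overlapped, and the interval of the difference ran from -0.42 to 1.02. The other ERBB4 probe was not well above background on any array, between -8.36 and -7.67.

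**Figure D2:**
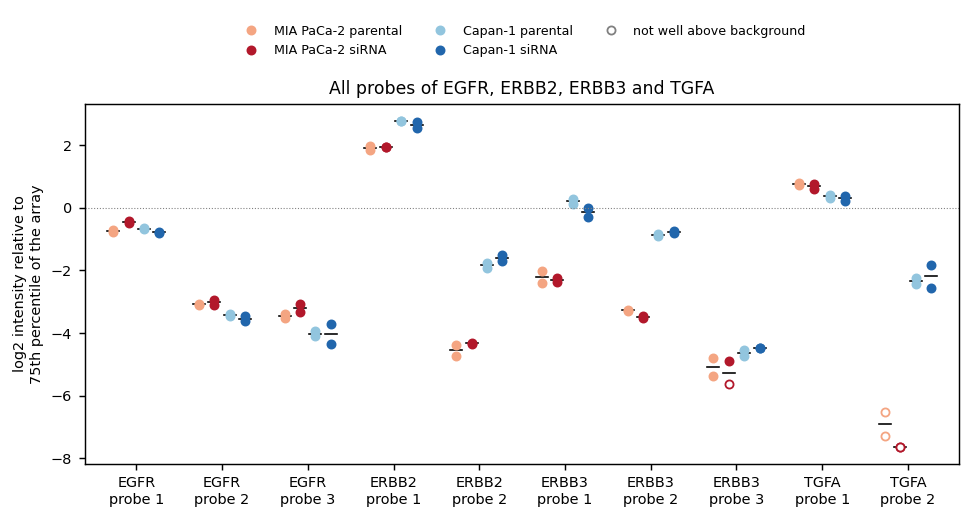
Relative log2 intensity of every probe of EGFR, ERBB2, ERBB3 and TGFA on the 8 arrays, 2 points a group, with a black line at the mean and open points where the probe was not well above background. TGFA probe 1 lies slightly higher in MIA PaCa-2 while probe 2 is above background in Capan-1 alone, and the ERBB3 probes 1 and 2 separate the lines by about the same distance.

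Of the ligands, HBEGF, the heparin-binding member, differed the most among those detected in both lines. Its probe (chr5:139693236-139693295) read -3.04 and -3.13 in parental MIA PaCa-2 and -0.08 and 0.02 in parental Capan-1. The level was 8.31-fold lower in MIA PaCa-2 (log2 difference -3.05, SE 0.14, adjusted p = 9.6e-06), with a difference of -1.89 under normexp. EREG (epiregulin, chr4:75472873-75472932) read 1.81 and 2.30 against 2.97 on both Capan-1 arrays, a difference of -0.92 (SE 0.18, adjusted p = 0.00489). EGF (chr4:111152138-111152197) was not well above background on either parental MIA PaCa-2 array, where it read -6.71 and -6.70, and was detected in Capan-1 at -5.06 and -4.79. EGF was therefore at least 2.11-fold lower in MIA PaCa-2, a bound set by the lowest detected signal. The adjusted p of 0.000179 (limma) is not that of the bound. It belongs to the fitted log2 difference of -1.78, which uses the undetected MIA PaCa-2 values. Under normexp EGF differed by -0.14 and did not pass (adjusted p = 0.266).

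The probes of TGFA, the ligand of EGFR most studied in pancreatic carcinoma, opposed each other. Probe 1 read 0.72 and 0.80 in parental MIA PaCa-2 and 0.40 and 0.33 in parental Capan-1, so that it was 1.31-fold higher in MIA PaCa-2 (log2 difference 0.39, SE 0.11, adjusted p = 0.017). Probe 2, placed 8.15 kb away, was not well above background in MIA PaCa-2, where it read -6.54 and -7.29, and read -2.43 and -2.26 in Capan-1. By this probe TGFA was at least 12.6-fold lower in MIA PaCa-2. The fitted log2 difference, which uses the undetected values, was -4.57 (limma, adjusted p = 4.68e-05), but it was -0.83 under normexp. No single direction can be given for TGFA. Without scaling between arrays, and under 4 others of the 20 alternatives, probe 1 did not pass, while probe 2 passed under all 19 that could test it.

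AREG (amphiregulin) and BTC (betacellulin) did not separate the parental lines. AREG probe 1 (chr4:75539382-75539441) read 3.81 and 4.15 in MIA PaCa-2 and 4.07 and 3.99 in Capan-1, and the interval of the difference ran from -0.42 to 0.32. The second AREG probe gave a difference of -0.14 with an interval from -0.85 to 0.56. BTC (chr4:75894862-75894921) read -2.46 and -2.42 in MIA PaCa-2 and -2.50 and -2.46 in Capan-1. Its interval was narrower, from -0.19 to 0.27.

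**Figure D3:**
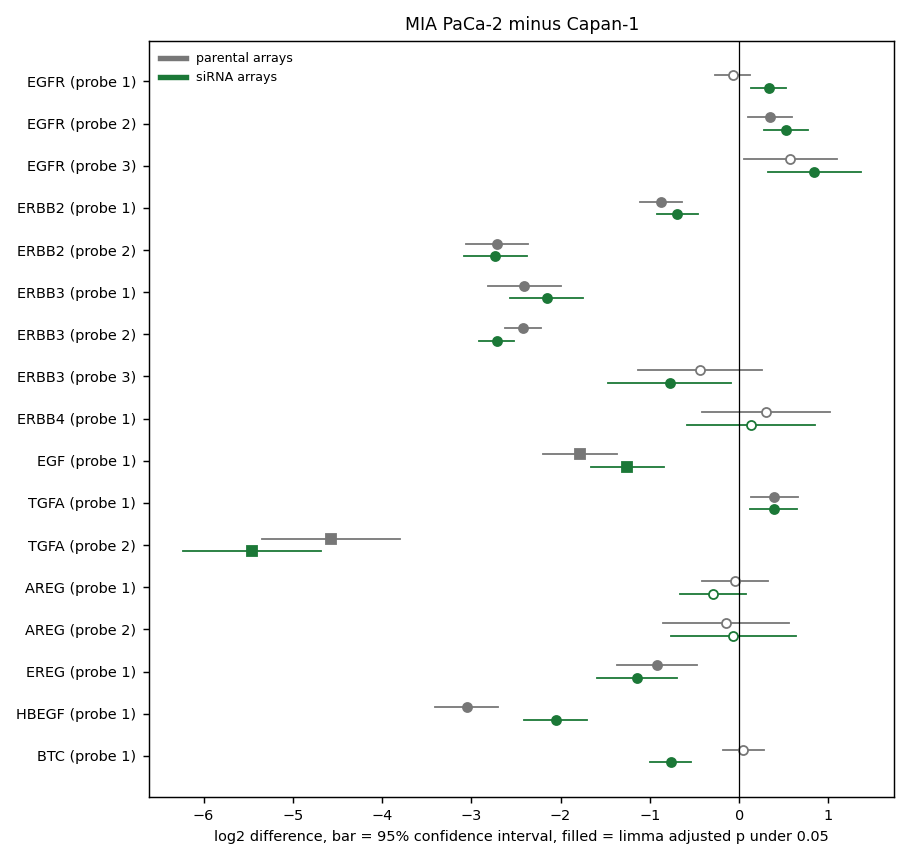
Log2 difference between MIA PaCa-2 and Capan-1 (horizontal axis, below 0 is lower in MIA PaCa-2) for the 17 member probes tested, in parental cells (gray) and in siRNA-treated cells (green), with 95% confidence intervals from the limma fit and filled points at an adjusted p under 0.05. Squares mark EGF and TGFA probe 2, not well above background in MIA PaCa-2, whose fitted differences are not bounds. Among the probes detected in both lines, the parental and siRNA values lie furthest apart for HBEGF and BTC.

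The same comparison in siRNA-treated cells gave the same 7 genes and BTC in addition, with 6 genes lower in MIA PaCa-2, EGFR higher and TGFA in both directions. The background was again high, since 74.8% of the genes tested differed (41.1% higher and 32.1% lower in MIA PaCa-2). Groups did not overlap for 15 of the 17 member probes, against 86.7% of all probes. All 3 EGFR probes passed here, with differences of 0.33 (adjusted p = 0.0105), 0.53 (0.00406) and 0.84 (0.0128). Probe 1 lost the call under 4 of 20 alternatives (without scaling, with spike-in scaling, and without MIA PaCa-2 siRNA replicate 1 or Capan-1 siRNA replicate 2), and probes 2 and 3 under 2 each, normexp among them for both. AREG probe 1 differed by -0.29 without overlap (adjusted p = 0.134), and it passed under normexp (-0.41, adjusted p = 0.00926). AREG probe 2 passed when Capan-1 siRNA replicate 1 was left out (-0.51, adjusted p = 0.0452). HBEGF was 4.16-fold lower in MIA PaCa-2 (log2 difference -2.06, SE 0.14), and BTC was 1.70-fold lower (log2 difference -0.76, SE 0.094, adjusted p = 0.000558). For both genes the values that set this comparison apart from the parental one were those of the siRNA arrays of MIA PaCa-2, given next.

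In MIA PaCa-2, HBEGF rose and BTC fell with the siRNA, and no other member passed the threshold. HBEGF read -3.04 and -3.13 on the parental and -2.32 and -1.92 on the siRNA arrays, which is 1.95-fold higher (log2 fold change 0.96, SE 0.14, adjusted p = 0.0422). BTC read -2.46 and -2.42 on the parental and -3.17 and -3.27 on the siRNA arrays, which is 1.72-fold lower (log2 fold change -0.78, SE 0.094, adjusted p = 0.0289). For both genes the siRNA arrays lay wholly on one side of the parental arrays. These are 2 of 9 members tested, beside 2.32% of all genes tested in MIA PaCa-2 (1.13% called higher and 1.18% lower), and 51.4% of all probes had groups that did not overlap. Both calls lay near the threshold: HBEGF passed under 9 of 21 alternatives and BTC under 6 of 21. Under normexp the log2 fold changes were 0.51 for HBEGF and -0.24 for BTC, and BTC did not pass (adjusted p = 0.163). Leaving out either parental MIA PaCa-2 array or any Capan-1 array took the call from HBEGF, while leaving out any of the 8 arrays took it from BTC. Each of these fits leaves 1 array in a group. Over the 8 fits the log2 fold change ran from 0.77 to 1.16 for HBEGF and from -0.83 to -0.73 for BTC. With a Capan-1 array left out it stayed at 0.96 and -0.78.

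The remaining members in MIA PaCa-2 are given by value. EGFR probe 1 read -0.71 and -0.76 in parental and -0.42 and -0.49 in siRNA-treated cells, without overlap, a log2 fold change of 0.28 (SE 0.079, adjusted p = 0.13). EREG read 1.81 and 2.30 against 2.54 and 2.39, also without overlap, a log2 fold change of 0.41 (SE 0.18, adjusted p = 0.28). The intervals of ERBB2 (-0.19 to 0.28), ERBB3 (-0.51 to 0.31), TGFA (-0.33 to 0.19) and AREG (-0.24 to 0.51) all contained 0, and that of ERBB4, from -0.74 to 0.70, was the widest. EGF was not tested, since it was not well above background on any MIA PaCa-2 array. The 6 other member probes tested had log2 fold changes between -0.21 and 0.25.

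In Capan-1 no member passed the limma threshold (0 of 10 genes and 0 of 17 probes), where 0.00596% of all genes tested did. Without adjustment 1316 of 23367 probes were higher and 1593 lower at a p under 0.05, and 54.2% of all probes had groups that did not overlap, as had 9 of the 17 member probes. EREG had the largest log2 fold change of the members. It read 2.97 on both parental arrays and 3.47 and 3.74 on the siRNA arrays, a log2 fold change of 0.64 (SE 0.18, 95% confidence interval 0.19 to 1.08, adjusted p = 0.307). AREG probe 1 read 4.07 and 3.99 against 4.26 and 4.55, a log2 fold change of 0.37 (SE 0.15, adjusted p = 0.40). ERBB3 probe 1 went from 0.11 and 0.29 to 0.01 and -0.30, a log2 fold change of -0.35 (SE 0.17, adjusted p = 0.45). HBEGF, at -0.08 and 0.02 in parental and -0.01 and -0.12 in siRNA-treated cells, and BTC, at -2.50 and -2.46 against -2.37 and -2.54, overlapped between the groups. Their intervals ran from -0.39 to 0.32 for HBEGF and from -0.20 to 0.26 for BTC.

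A rule of the kind the study used, which asks that both siRNA arrays fall outside the 99% interval of the log2 ratios of the parental duplicates at the same intensity, gave another selection. EREG in Capan-1 was the member it called, with log2 ratios of 0.50 and 0.77 against limits of 0.43 and 0.42. By that rule 1.78% of the probes tested were called in Capan-1 and 0.489% in MIA PaCa-2. In MIA PaCa-2 it called neither HBEGF, whose ratios of 0.72 and 1.20 met limits of 1.14 and 1.11, nor BTC, whose ratios of -0.71 and -0.86 stayed within limits of 1.28. For HBEGF 1 of 2 arrays was outside. The study also required at least 2 probes a gene, signal in most of them and the same direction in all, which was not applied here. EREG, HBEGF and BTC have 1 probe each, so the full rule of the study could call none of them. The ratios were taken between arrays of the same replicate number, which only names the arrays.

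**Figure D4:**
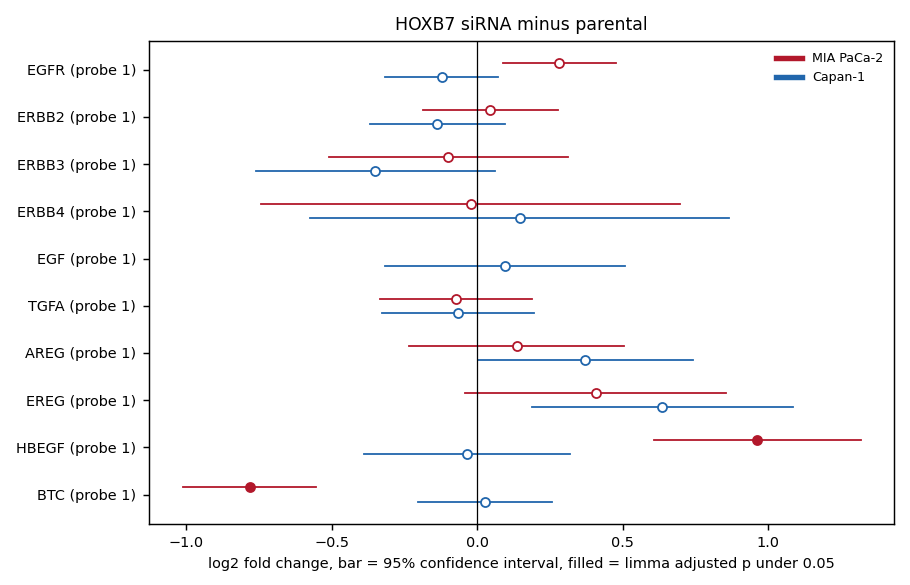
Log2 fold change of HOXB7 siRNA over parental cells (horizontal axis) for the brightest probe of each member in MIA PaCa-2 (red) and Capan-1 (blue), with 95% confidence intervals from the limma fit and filled points at an adjusted p under 0.05; EGF was not tested in MIA PaCa-2. HBEGF (0.96) and BTC (-0.78) in MIA PaCa-2 are the filled points, and the intervals of both genes in Capan-1 contain 0.

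Whether the response differed between the lines was tested as the difference of both fold changes, and no member passed, beside 0.00553% of all genes. For HBEGF the response was higher by 1.00 in MIA PaCa-2 (SE 0.20, 95% confidence interval 0.50 to 1.50, adjusted p = 0.196). For BTC it was lower by 0.81, a difference of -0.81 (SE 0.13, interval -1.13 to -0.48, adjusted p = 0.144). EREG differed by -0.23, with an interval from -0.86 to 0.41. These comparisons use the same parental and siRNA arrays as those of each line, so they are no separate evidence.

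Taking the groups in order of level, HBEGF was highest in both Capan-1 groups, which did not differ beyond their spread, then in siRNA-treated and last in parental MIA PaCa-2. EREG ran from siRNA-treated Capan-1 through parental Capan-1 and siRNA-treated to parental MIA PaCa-2. For EREG the test did not separate the groups within a line. BTC lay within a range of -2.54 to -2.37 in parental MIA PaCa-2 and both Capan-1 groups, not separated by the tests, and was lowest in siRNA-treated MIA PaCa-2. ERBB2 and ERBB3 had both Capan-1 groups above both MIA PaCa-2 groups, and no difference within a line passed. For ERBB4 and AREG none of the pairs of groups tested passed, apart from the alternatives named above for AREG.

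The 250 bases before the start of HBEGF and BTC, the members whose probes passed with the siRNA, and of EREG and AREG, neighbors on chromosome 4, were searched on both strands for 4 short motifs. These were TGATNNAT, which PBX-HOX pairs are known to bind, TGANTCA of AP-1, TGACGTCA of CREB (the CRE), and TATAAA. The sequences are from RefSeq (GRCh38.p14), read 5′ to 3′ on the strand of the gene, and capitals mark the matches.
HBEGF, chr5:140346604-140346853, minus strand: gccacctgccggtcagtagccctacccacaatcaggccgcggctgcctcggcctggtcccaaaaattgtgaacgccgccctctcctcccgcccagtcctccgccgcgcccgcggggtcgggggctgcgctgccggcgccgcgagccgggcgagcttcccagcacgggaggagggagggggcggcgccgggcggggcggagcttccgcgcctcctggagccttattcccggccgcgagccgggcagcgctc
BTC, chr4:74794524-74794773, minus strand: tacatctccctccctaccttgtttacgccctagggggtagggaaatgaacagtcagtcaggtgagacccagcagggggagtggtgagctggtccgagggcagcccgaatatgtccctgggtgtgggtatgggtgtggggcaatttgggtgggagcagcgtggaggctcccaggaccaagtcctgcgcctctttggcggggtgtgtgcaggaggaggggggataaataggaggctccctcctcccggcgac
EREG, chr4:74364895-74365144, plus strand: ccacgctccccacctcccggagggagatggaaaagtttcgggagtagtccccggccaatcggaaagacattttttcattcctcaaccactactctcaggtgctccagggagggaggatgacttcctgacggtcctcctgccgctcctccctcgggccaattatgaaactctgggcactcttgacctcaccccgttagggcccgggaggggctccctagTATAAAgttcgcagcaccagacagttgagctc
AREG, chr4:74444886-74445135, plus strand: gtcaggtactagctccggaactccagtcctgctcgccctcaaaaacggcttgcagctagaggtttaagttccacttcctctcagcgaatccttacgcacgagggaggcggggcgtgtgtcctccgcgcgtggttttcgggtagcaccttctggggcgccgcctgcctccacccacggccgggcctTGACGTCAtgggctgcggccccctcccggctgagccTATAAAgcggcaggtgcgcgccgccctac
AREG held 1 CRE, starting 65 bases before the start, and TATAAA stood 29 bases before the start of AREG and 32 before that of EREG. Of 35116 promoter windows of this length, 1.65% held the CRE, 6.57% the AP-1 letters, 6.47% the PBX-HOX letters and 10.7% TATAAA. The windows of HBEGF and BTC held none of the 4 motifs. A match is a description of the letters and says nothing of binding.

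Of 53 other genes of the pathway, 49 were tested between the parental lines, with 20 higher in MIA PaCa-2, 19 lower and 2 with probes in both directions. Of all genes tested, 74.8% differed between the parental lines, 40.4% higher and 32.9% lower in MIA PaCa-2. The counts of each list below stand beside these same shares, and whether a list departs from them was not tested. The median difference of the pathway genes was 0.0015, beside 0.090 over all genes. Genes that restrain the receptors included the widest gaps, with 5 of 9 lower and 2 higher. The ubiquitin ligase CBLC was at least 133-fold and LRIG3 at least 41.5-fold lower in MIA PaCa-2, where neither was well above background. LRIG1, a transmembrane protein that promotes receptor degradation, had a difference of -5.44 (adjusted p = 3.45e-07) and CBLB, another ubiquitin ligase, of -2.88. ERRFI1, an inhibitor of the EGFR kinase named here after its value was seen, was higher in MIA PaCa-2 by 1.92. SH3KBP1, an adaptor in receptor uptake, had probes in both directions.

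The genes of ligand release, which are ADAM proteases together with the non-proteases RHBDF1 and RHBDF2, were split, with 2 of 6 higher and 4 lower. ADAM17, the main sheddase of TGFA and AREG, was higher in MIA PaCa-2 by 1.34, while ADAM10, which cleaves EGF and BTC, had a difference of -1.46 by its brighter probe. ADAM12 and RHBDF1 had differences of -1.22 and -0.63. Among other ligands NRG4, which binds ERBB4, had a difference of -1.06, and the probes of NRG2 went both ways.

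Among 12 adaptors and early signaling genes tested, 6 were higher and 3 lower. SHC1, an adaptor that links the receptors to RAS, was higher in MIA PaCa-2 by 3.29 and PLCG1 by 1.38, while PIK3R1, a regulatory subunit of PI3K, and GAB2 had differences of -2.83 and -2.82. Of the 12 RAS-ERK and AKT kinase genes, 7 were higher and 2 lower. MAP2K2 was higher by 1.57 and MAPK3 by 1.17, whereas MAP2K1 had a difference of -1.21. Of 8 early genes that respond to ERK, 3 were higher, among them PHLDA1 by 1.25, and 4 lower, among them IER3 (-3.09 by its brighter probe), FOS (-2.21) and FOSB (-1.34).

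**Figure D5:**
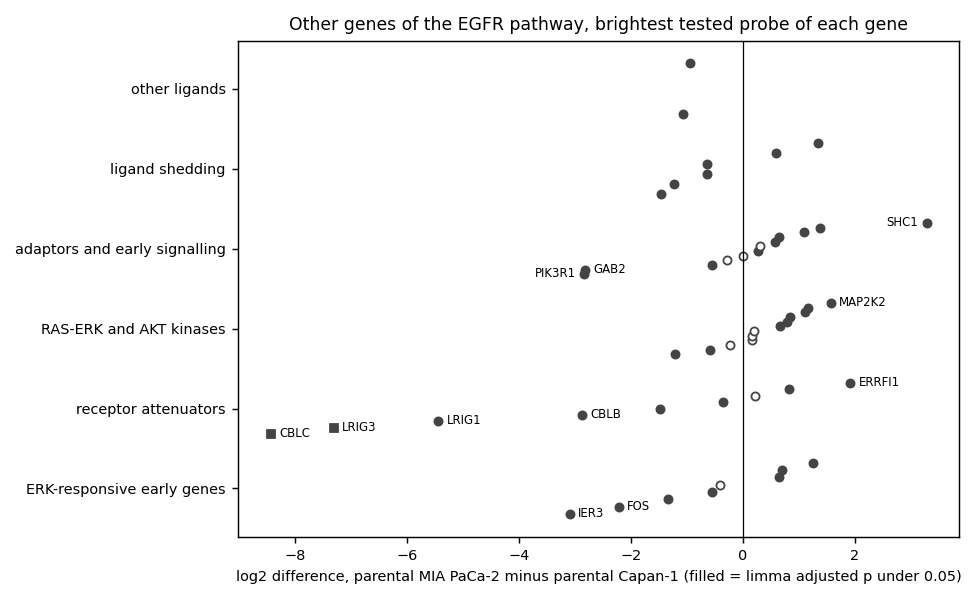
Log2 difference between parental MIA PaCa-2 and parental Capan-1 (horizontal axis, below 0 is lower in MIA PaCa-2) for the brightest tested probe of each of 49 genes in 6 lists of the pathway, filled at a limma adjusted p under 0.05 and square where the probe was not well above background in MIA PaCa-2. Each list holds genes on both sides of 0 except the other ligands, and the receptor attenuators reach furthest to the left.

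With the siRNA, 1 of 48 pathway genes tested passed in MIA PaCa-2, where 2.32% of all genes tested did, so the count is near that share. NRG4 fell by 0.84 on the log2 scale (SE 0.14, adjusted p = 0.0484), and this call was lost under 15 of 21 alternatives, including the removal of any 1 of the 8 arrays. In Capan-1 limma called 0 of 49, and 0 of 50 differed in response between the lines, beside 0.00596% and 0.00553% of all genes. The median fold change of the pathway genes was 0.025 for MIA PaCa-2 and 0.012 for Capan-1 on the log2 scale, beside 0.0081 and -0.0056 over all genes.

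The probes most like each member over the 8 arrays were found among 18575 to 18577 probes of other named genes detected on all arrays, by the root mean square difference of the log2 values after subtracting the mean of each probe. For HBEGF these were LETM2 (0.11) and PPARG (0.17), beside a spread of 1.42 (SD) of HBEGF itself. For EREG they were SNAI2 (0.064) and PRTFDC1 (0.092), with an SD of 0.64. ERBB3 was closest to ZNF703 (0.089) and PALLD (0.098), ERBB2 to POLR2K (0.053) and SLC35E1 (0.061), and BTC to CHAC1 (0.095) and ZNF235 (0.10). EGFR, with an SD of 0.14, was nearest to DNAJC24 (0.051) and GPHN (0.054), TGFA to LOC391334 and CBX1 (both 0.056), AREG to SEH1L and TRIM13 (both 0.056) and ERBB4 to FAM163B (0.11) and SSTR3 (0.13).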

How the data were processed

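RNA of 8 samples was hybridized on one-color Agilent arrays. The authors scanned the arrays and deposited, for each spot, the intensity after background subtraction by Feature Extraction 9.5.3 (per the file headers), with flags. The log2 values of a deposited table equal the log2 of these intensities within 3.45e-08, which shows that the arrays had not been scaled to each other.

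Members and lists were chosen with earlier results of these data known. The log2 intensities of the unflagged spots of a probe were averaged and the 75th percentile of the gene probes of each array subtracted. Tests used limma 3.58.1 (lmFit, eBayes; R 4.3.3) on the 4 group means of all 8 arrays, two-sided, with the threshold at an adjusted p under 0.05. The shared spread was estimated over the probes detected (called well above background) on both arrays of any group. Testing a probe required detection on both arrays of a group in the comparison, and a gene was called in a direction when a probe passed in it and none in the other. The fit was tested on simulated data. For a group without detection, a fold change is a lower bound against the lowest detected signal, and the p-value is that of the fitted difference. Named were all members, HOXB7, up to 4 genes of each pathway list past the threshold with the largest difference and no overlap, and the 2 most similar probes of each member. A gene that this rule names is not reported here. The 99% interval was taken over 1001 probes nearest in intensity, a window set here. Alternatives were normexp (offset 50), other scalings, filters and fits, the replicate block and leaving out each array. The package data.table (version 1.17.8) and, for sequences and figures, Python 3.11.15 with pandas 2.3.3, numpy 2.4.6 and matplotlib 3.10.9 were used. RefSeq promoters (GRCh38.p14) and symbols were matched by name.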

Additional observations from a re-analysis of the deposited data

Results flagged for a closer look

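The response of EGFR (probe 1) to the siRNA went opposite ways in the lines. On the log2 scale it was 0.28 for MIA PaCa-2 and -0.12 for Capan-1, and the groups did not overlap within either line. The difference of 0.40 was tested and did not pass (limma, adjusted p = 0.308). ERBB3 probe 2, for the short variant, did so in reverse, with -0.21 for MIA PaCa-2 and 0.083 for Capan-1. Their difference of -0.30 did not pass either (adjusted p = 0.428), and under normexp the MIA PaCa-2 value changed sign. Groups of 2 arrays that do not overlap were common, at 51.4% of the probes in one line and 54.2% in the other.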

How the results depend on the processing

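The calls of ERBB2, ERBB3, EREG and HBEGF between the lines held under all 20 alternatives run, and that of EGF under 18 of 19, but normexp made the differences smaller (HBEGF -1.89 in place of -3.05 between the parental lines). The number of members higher in parental MIA PaCa-2 (1, EGFR) became 0 under normexp, spike-in scaling and an intensity trend in the spread, 2 (with TGFA) where only probes detected on all 8 arrays were tested, and 0 to 1 when leaving out 1 array. In siRNA-treated cells it became 2 under that filter. The filter left out TGFA probe 2, which opposes probe 1, so that TGFA counted as higher. Without scaling and with spike-in scaling, where TGFA probe 1 did not pass, TGFA counted as lower in both comparisons of the lines. With the siRNA in MIA PaCa-2, HBEGF and BTC (1 higher, 1 lower) became 0 and 0 without scaling, with spike-in scaling, with no filter, in the cell line alone, by the 99% interval and with the replicate block (adjusted p = 0.0832 and 0.0656), and BTC alone was lost under normexp. Leaving out 1 array gave 0 to 1 higher and 0 lower. In Capan-1 the 99% interval gave 1 higher, EREG, beside 1.03% of all probes. Over all probes in MIA PaCa-2, calls fell as well in the settings listed above with 0 and 0, from 0.962% higher and 0.932% lower. They were at most 0.261% and 0.228% there (99% interval), and 0% and 0% in the cell line alone. Pathway genes called in MIA PaCa-2 (0 higher, 1 lower) ranged from 0 to 4 in each direction, with 0 lower under 15 of 21 alternatives and 4 and 4 with the intensity trend. With that trend 2.34% of all probes were called higher and 2.94% lower. Replicate numbers only name the arrays: the deviations of same-numbered arrays correlated at -0.088 to 0.18 between groups, and the replicate block changed no call of a member between the lines. A block for the slide could not be fitted, since each slide holds 1 line. Without scaling the median of all probes shifted by -0.19 for MIA PaCa-2 and -0.16 for Capan-1, and with spike-in scaling by -0.07 and -0.29, while between the parental lines it was -0.03 in place of 0.11 (log2).

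With the siRNA, alternatives were run on the brightest probe of each member and ERBB3 probe 2, so other second probes are not in this account. None of the values that changed sign had passed the threshold. Under normexp these were, on the log2 scale, AREG probe 2 (0.015 between parental and 0.085 between siRNA-treated lines), BTC between the parental lines (-0.031), ERBB3 probes 1 and 2 (0.040 and 0.042) and ERBB4 (0.15) with the siRNA in MIA PaCa-2, and HBEGF (0.0013) in Capan-1. Without scaling they were ERBB2 (-0.17) and AREG (-0.078) in MIA PaCa-2, and ERBB3 probe 2 (-0.070), ERBB4 (-0.0073), EGF (-0.058) and BTC (-0.13) in Capan-1. With spike-in scaling they were BTC between the parental lines (-0.093), ERBB2 in MIA PaCa-2 (-0.044), and ERBB3 probe 2 (-0.20), ERBB4 (-0.13), EGF (-0.19) and BTC (-0.25) in Capan-1. Leaving out 1 array, AREG probe 1 ran from -0.22 to 0.12 and probe 2 from -0.32 to 0.026 between the parental lines, and ERBB4 from -0.13 to 0.40 and AREG probe 2 from -0.51 to 0.38 between the siRNA-treated lines. For the siRNA in MIA PaCa-2 the ranges were -0.017 to 0.11 (ERBB2), -0.28 to 0.083 (ERBB3), -0.32 to 0.28 (ERBB4), -0.15 to 0.0094 (TGFA) and -0.036 to 0.31 (AREG). In Capan-1 they were -0.12 to 0.41 (ERBB4), -0.039 to 0.23 (EGF), -0.16 to 0.029 (TGFA), -0.092 to 0.020 (HBEGF) and -0.057 to 0.11 (BTC), and for the difference in response of EREG -0.47 to 0.018. The causes were not tested.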
